A study of Mus musculus with 12 samples.

Results

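The comparison described here sets freshly isolated villi against freshly isolated crypts of the mouse small intestine, over duodenum, jejunum and ileum. It rests on 9 of the 12 libraries of the series: 3 villus libraries, 1 from each region, and 6 crypt libraries, 2 from each region and numbered 1 and 2 in their names. They were chosen by name alone. The other 3 libraries come from organoids kept in culture for 12 weeks and take no part in the values below. All 9 are poly(A) RNA from uncultured mouse tissue, read as 50-base reads on a SOLiD 4 sequencer. The labels name no strain, age, treatment or number of animals for any library, so the p-values measure only the spread between these libraries, which may be technical.

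The lining of the small intestine renews itself along an axis. Stem cells at the base of each crypt, kept by Wnt and Notch signals and flanked by Paneth cells that secrete defensins and lysozyme, give rise to dividing progenitors. Their daughters leave the cell cycle as they cross onto the villus, where they digest and absorb food as enterocytes, or secrete mucus or hormones, until they are shed at the tip. The villus epithelium also houses many intraepithelial lymphocytes, and each villus has a core of connective tissue with vessels, smooth muscle and immune cells.

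Levels are the deposited RPKM values (reads in a gene divided by its exon length and by library depth), which are per length and so can be set beside each other between genes. Differences are villi minus crypts in log2(RPKM + 1), fitted with region as a term, and are written with ± their standard error (SE). The added 1 makes them understate the change of genes with low levels. A gene was called higher or lower when limma's p-value, adjusted by the Benjamini-Hochberg method over all 11277 tested genes, was below 0.05. In tissue-wide RNA, fewer cells of a type and less RNA per cell cannot be told apart.

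The totals implied by the RPKM values were 5268480 to 10275855 reads in the crypt libraries and 12118586 to 13094383 in the villus libraries. Reads within the listed genes made up 44.3% to 52.3% of the number-1 crypt libraries, 60.1% to 67.6% of the number-2 crypt libraries and 67.8% to 75.8% of the villus libraries. Crypt libraries with the same number also deviated together: the gene-wise difference between number 2 and number 1 correlated between regions at 0.416 (duodenum and jejunum), 0.502 (duodenum and ileum) and 0.789 (jejunum and ileum), as a description across 11277 genes. Of the genes called higher in villi, number 2 lay above number 1 for 82.8%, 75.0% and 80.6% in duodenum, jejunum and ileum. Of the genes called lower, it did so for 62.9%, 30.1% and 36.7%. In duodenum number 2 thus lay above number 1 for most genes of both kinds. The median difference of the genes called higher was 1.61 against the number-1 libraries and 1.04 against the number-2 libraries. For the genes called lower it was -1.22 against either.

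The comparison came with 3 villus and 3 crypt markers, shown in the plot of markers by library. Ada encodes adenosine deaminase (mm9, chr2:163552319-163575912, minus strand) and measured 3.09 to 18.7 RPKM (median 5.04) in the 6 crypt libraries and 1237, 552 and 246 RPKM in duodenal, jejunal and ileal villi. Enpp7, the sphingomyelinase of the brush border (chr11:118849501-118854154, plus strand), measured 0.554 to 45.7 RPKM (median 4.39) in crypts and 205, 737 and 784 RPKM in villi. Apoa4, an apolipoprotein of chylomicrons (chr9:46048926-46051540, plus strand), measured 6.04 to 2783 RPKM (median 124) in crypts and 46870, 17210 and 2368 RPKM in villi. Each was higher in the villi of every region than in both crypt libraries of that region, although the ileal villi lay below the jejunal number-2 crypts for Apoa4.

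Lyz, the Paneth cell lysozyme (chr10:116724852-116729923, minus strand), measured 1031 to 11810 RPKM (median 3564) in crypts and 18.6, 79.8 and 204 RPKM in villi. Ang4, an antimicrobial ribonuclease of Paneth cells (chr14:52383566-52393264, minus strand), measured 296 to 3399 RPKM (median 1480) in crypts and 6.15, 30.8 and 69.5 RPKM in villi. Top2a, the topoisomerase of dividing cells (chr11:98854260-98885502, minus strand), measured 19.5 to 37.5 RPKM (median 22.7) in crypts and 0.512, 1.08 and 1.2 RPKM in villi. For these 3 genes all villus libraries lay below all crypt libraries. The differences were 6.34 ± 0.51 for Ada, 6.28 ± 0.74 for Enpp7, 6.21 ± 1.15 for Apoa4, -5.77 ± 0.63 for Lyz, -5.71 ± 0.51 for Ang4 and -3.73 ± 0.27 for Top2a, with adjusted p between 6.3e-05 and 0.00184. Within each region the markers followed the labels. They were named for this comparison beforehand, so they describe the libraries and are not an independent check of the labels.

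**Figure D1:**
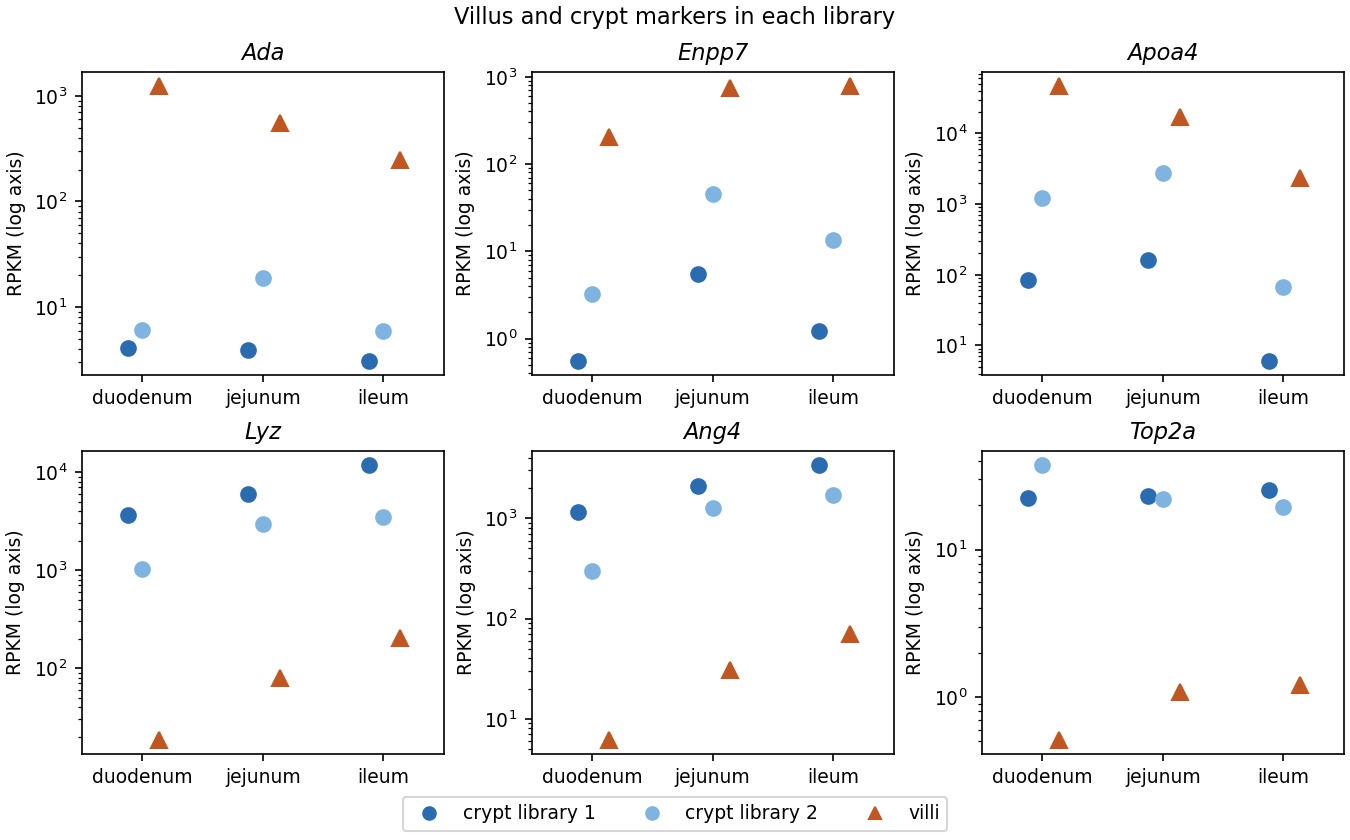
RPKM on a log axis of 3 villus markers (upper row) and 3 crypt markers (lower row) by region. Circles are the crypt libraries numbered 1 (dark) and 2 (light) and triangles the villus libraries; within each region the triangle lies above both circles for Ada, Enpp7 and Apoa4 and below both for Lyz, Ang4 and Top2a.

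Of the 11277 tested genes, 2168 (19.2%) were higher in villi and 3661 (32.5%) lower. The median difference of all tested genes was -0.22. It was -0.45 when libraries were scaled to their reads in genes and 0.02 with median-of-ratios scaling, and the share of calls that were higher moved with it, from 37.2% to 26.1% and 53.6%. Calls that held under all 3 scalings numbered 1719 higher (15.2%) and 2971 lower (26.3%). All 3 villus libraries lay above all 6 crypt libraries for 1928 genes (17.1%) and below them for 3669 (32.5%). Without the duodenal, jejunal and ileal villus library in turn, 1383, 1335 and 1385 genes were higher and 2260, 2572 and 2789 lower. Against the number-1 crypt libraries alone 3331 genes were higher (29.5%) and 4090 lower (36.3%), and against the number-2 libraries 1713 (15.2%) and 3557 (31.5%), with 1633 and 3032 of the calls made against both. With the crypt number as a block 2757 genes were higher (24.4%) and 4209 lower (37.3%). The block fit sets villi, which belong to no block, against the mean of both crypt numbers. It leaves the split between crypt numbers out of the spread. A call made in it therefore does not show that villi differ from both crypt sets. Where one of these settings, or the 3 scalings together, moved a count of a list below by over 1.5 times, its counts stand in parentheses, higher first and lower second.

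**Figure D2:**
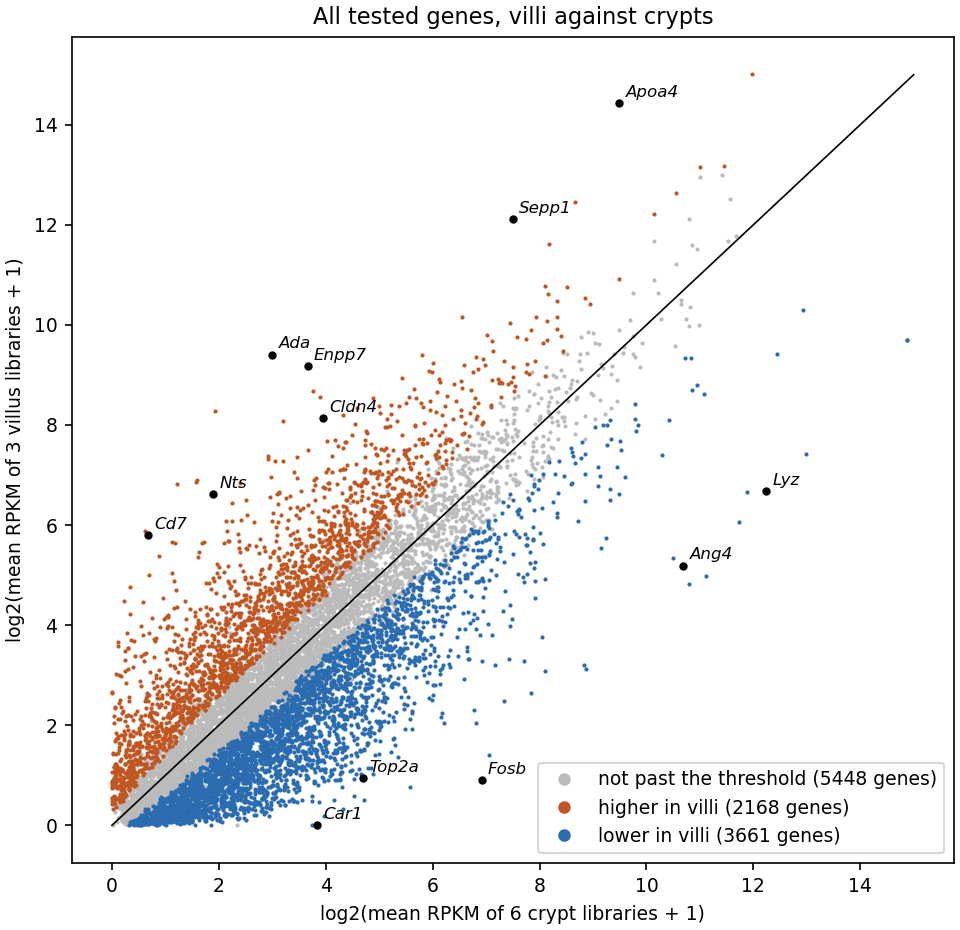
Mean RPKM plus 1 of the 6 crypt libraries against that of the 3 villus libraries, both on a log2 scale, for all 11277 tested genes, with the line of equal levels. Orange points are the 2168 genes called higher in villi, blue the 3661 called lower and grey the others; Ada, Enpp7 and Apoa4 lie above the line, Lyz, Ang4 and Top2a below it.

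Among called genes whose villi and crypts did not overlap, with a mean of at least 5 RPKM in the higher tissue, the largest difference upward was that of 2010109I03Rik (current symbol Ly6m), at 6.96 ± 0.84, adjusted p = 0.000212, with 0 to 8.36 RPKM (median 0.179) in crypts and 523, 242 and 166 RPKM in villi. Ada and Enpp7 followed among these genes, then Pmp22, a membrane protein first known from myelin, at 681, 478 and 870.2 RPKM in villi. In the crypts Pmp22 ranged from 0.843 to 272 RPKM (median 4.49), the ileal number-2 crypts being the highest, and all villi lay above them. Slc34a2, a sodium phosphate transporter, measured 0.0916 to 38.9 RPKM (median 2.44) in crypts and 103, 212 and 492 RPKM in villi. Sepp1, the plasma selenium carrier, reached 4100 to 4836 RPKM in villi and 23.6 to 382 RPKM (median 135) in crypts. Its difference was 7.26 against the number-1 and 3.78 against the number-2 crypts.

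Dnase1 (secreted DNA-cutting enzyme, 5.48 ± 0.63), Bst1 (a surface NAD-cleaving enzyme, 5.25 ± 0.88), Clca6 (5.77 ± 0.68), H2-Q2 (an MHC class I gene, 5.18 ± 0.48), the hormone gene Nts (5.10 ± 0.40) and Enpp3 (an ectonucleotidase, 5.10 ± 0.63) completed the 12. Enpp3 measured 206, 117 and 11.3 RPKM in duodenal, jejunal and ileal villi against 0.27 to 4.38 RPKM (median 0.428) in crypts, so its ileal villi were nearest to the crypts. Downward, 10 of the 12 largest differences among such genes belonged to Paneth cell products and the other two were immediate early genes. Fosb measured 75.4 to 181 RPKM (median 120.2) in crypts and 0.89, 1.1 and 0.612 RPKM in villi, a difference of -5.96 ± 0.30, adjusted p = 3.3e-05. Egr1 measured 118 to 190.5 RPKM (median 174) in crypts and 5.59, 3.2 and 4.92 RPKM in villi. All 24 genes kept their calls when any of the 9 libraries was left out.

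**Figure D3:**
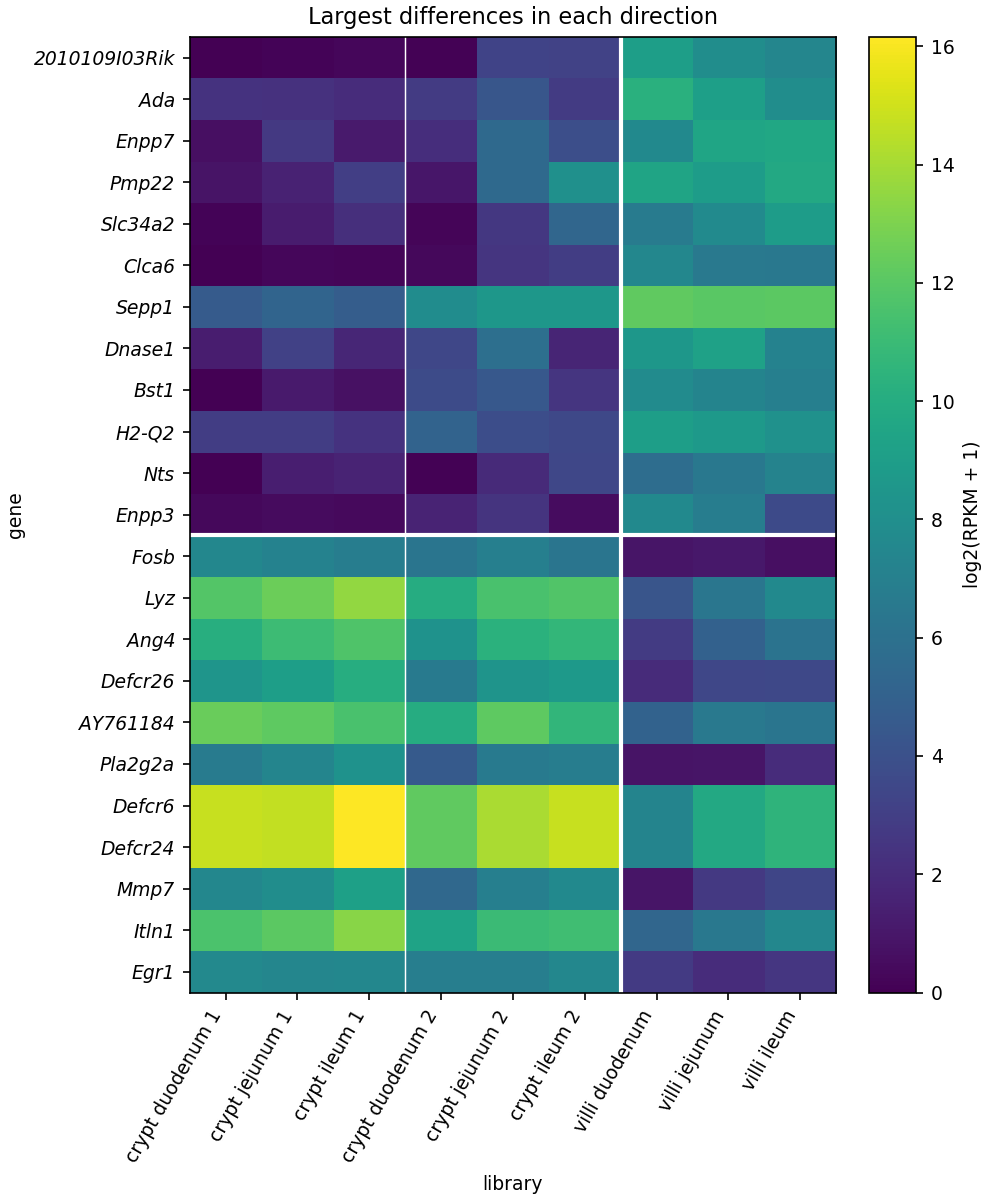
Levels in log2(RPKM + 1), coloured from 0 (dark purple) to the highest value (yellow), of the genes with the largest called differences without overlap of villi and crypts, 12 higher and 11 lower (rows), in the 9 libraries (columns). White lines separate higher from lower genes and crypts from villi; the number-2 crypts are brighter than the number-1 crypts of the same region for Sepp1 and darker for Lyz, Ang4 and Mmp7.

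Stem cell genes were lower in villi. Of 23 listed and tested, 20 were lower and none higher (median -2.35; -2.58 against the number-1 and -1.77 against the number-2 crypt libraries). Ascl2, a Wnt-driven factor that specifies stem cells, measured 18.3 to 32.2 RPKM (median 24.6) in crypts and 0.924, 0.696 and 1.52 RPKM in villi (-3.61 ± 0.25, adjusted p = 6.3e-05). The stem cell marker gene Lgr5 measured 1.77 to 17.2 RPKM (median 4.63) in crypts and 0.0973, 0.133 and 0.193 RPKM in villi (-2.40 ± 0.56, adjusted p = 0.00589). Lgr5 split by crypt number, at 6.37, 9.39 and 17.2 RPKM in the number-1 crypts and 2.9, 1.77 and 2.11 RPKM in the number-2 crypts, and all villi lay below both.

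Olfm4, a secreted glycoprotein of stem cells, split more widely: 341, 1063 and 941 RPKM in the number-1 crypts of duodenum, jejunum and ileum, 308, 37.5 and 33.4 RPKM in the number-2 crypts, and 3.17, 11.4 and 9.91 RPKM in villi. Its difference of -4.79 ± 1.16, adjusted p = 0.00704 was not called without the duodenal villi (adjusted p = 0.0744). Sox9 (-3.19 ± 0.22), Igfbp4 (-3.09 ± 0.25), Cdca7 (-2.99 ± 0.31) and Smoc2 (-3.61 ± 0.43) were lower, and Sox9 differed little between the crypt libraries, at 19.03 to 26.3 RPKM (median 23.8). Axin2 (-0.75 ± 0.35, adjusted p = 0.0954), Bmi1 and Tert were the 3 not called. Axin2 was called lower with the crypt number as a block (adjusted p = 0.0351) and when scaled to reads in genes (0.0444).

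Among the signals that set the axis, 11 of 17 tested Wnt receptors and targets were lower and 1 higher (1 and 13 against the number-1 crypts, 0 and 10 against the number-2 crypts, 2 and 12 with the crypt number as a block). Their median was -1.06, and 4 of 21 listed had too few reads. The targets Ccnd1 (-3.12 ± 0.32), Myc (-2.76 ± 0.32) and Sox4 (-4.23 ± 0.52) each lay below every crypt library. Leaving out 1 library changed the higher Wnt count to 2 without the duodenal number-1 crypts. Of the Notch pathway, 6 of 12 tested genes were lower and 2 higher (2 and 6 against the number-1 crypts, 1 and 6 against the number-2 crypts, 0 and 6 under all 3 scalings). The Notch shares were 16.7% higher and 50% lower, beside 19.2% and 32.5% of all tested genes. Hes1, the main Notch target, measured 67.9 to 102 RPKM (median 86.9) in crypts and 11.2, 13.1 and 13.5 RPKM in villi (-2.68 ± 0.26, adjusted p = 9.67e-05), and Notch1 (-1.70 ± 0.29), Notch2 (-0.82 ± 0.18) and Lfng (-1.82 ± 0.32), which modifies the receptors, were lower too. The higher Notch count was 1 without the duodenal villi, jejunal number-1 crypts, ileal number-2 crypts or ileal villi and 0 without the jejunal villi.

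Eph receptors and ephrins sort cells along the crypt. Of 10 tested, 5 were lower and 4 higher (1 and 5 under all 3 scalings). The Eph shares were 40% higher and 50% lower, beside 19.2% and 32.5% of all tested genes. The receptors Ephb2 (-2.29 ± 0.28), Ephb3 (-2.14 ± 0.33) and Ephb4 (-2.94 ± 0.27) were lower, and so was the ligand Efna4 (-2.75 ± 0.32). Epha1 was higher (1.76 ± 0.41, adjusted p = 0.00558). The ligand Efnb1 measured 21.6 to 35.9 RPKM (median 24.1) in crypts and 30.7, 33.97 and 43.9 RPKM in villi and was not called (0.45 ± 0.25, adjusted p = 0.157), although it was called higher with median-of-ratios scaling (0.0155) and against the number-1 crypts alone (0.0356). Among Eph genes the higher count became 2 without the duodenal number-1 crypts, duodenal villi, jejunal number-1 crypts, jejunal number-2 crypts or ileal number-1 crypts and 1 without the jejunal villi or ileal villi.

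Of the BMP and hedgehog pathway, 3 of 14 tested genes were higher and 2 lower (6 and 3 against the number-1 crypts, 1 and 2 against the number-2 crypts, 1 and 2 under all 3 scalings). Without these alternatives the shares were 21.4% and 14.3%, beside 19.2% and 32.5% of all tested genes. Smad7, the inhibitory Smad that BMP and TGF-beta signals induce, measured 3.0 to 5.73 RPKM (median 3.73) in crypts and 17.5, 18.8 and 17.4 RPKM in villi (1.94 ± 0.24, adjusted p = 0.00026). Bmp7 (-2.10 ± 0.28) and the hedgehog transducer Smo (-1.43 ± 0.21) were lower. Of the EGF receptor family and its ligands, 2 of 9 tested genes were higher and 2 lower (4 and 3 against the number-1 crypts, 2 and 2 against the number-2 crypts, 4 and 3 with the crypt number as a block). The EGF family shares were 22.2% higher and 22.2% lower, beside 19.2% and 32.5% of all tested genes. Erbb3 was higher at 50.9, 95.7 and 81.2 RPKM in villi against 10.3 to 17.3 RPKM (median 11.1) in crypts (2.51 ± 0.25, adjusted p = 0.00011). The ligand Hbegf (-2.81 ± 0.41) and Lrig1, a receptor inhibitor that also marks stem cells (-1.96 ± 0.39), were lower. The higher BMP and hedgehog count was 5 without the duodenal number-2 crypts and 1 without the duodenal number-1 crypts, duodenal villi, jejunal number-1 crypts, jejunal villi, ileal number-1 crypts or ileal villi, and the higher EGF family count 1 without the jejunal villi.

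Genes of cell division were lower in villi throughout. All 26 listed genes of the cell cycle and mitosis (median -2.53) and all 26 of DNA replication (median -2.56) were called lower, and for all 52 the 3 villus libraries lay below the 6 crypt libraries. All 26 cell cycle genes stayed lower without any 1 library, and at least 24 of the replication genes did. Against the number-1 and number-2 crypts the cell cycle median was -2.56 and -2.62, so the 2 crypt sets gave nearly the same size. By region it was -3.37 in duodenum, -2.27 in jejunum and -2.15 in ileum.

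Ccnd2, a G1 cyclin, measured 71.5 to 128 RPKM (median 97.1) in crypts and 7.15, 11.6 and 11.7 RPKM in villi (-3.17 ± 0.28, adjusted p = 8.09e-05). The spindle genes Tpx2 (-2.71 ± 0.25) and Kif11 (-2.49 ± 0.25) were lower. Of the replication genes, the helicase subunit Mcm3 measured 16.6 to 35.4 RPKM (median 19.7) in crypts and 0.741, 1.14 and 1.6 RPKM in villi (-3.36 ± 0.29, adjusted p = 7.31e-05). Tk1 (thymidine kinase, -3.32 ± 0.36), Lig1 (the ligase that joins new strands, -3.03 ± 0.24) and Hells (a chromatin remodeler, -2.58 ± 0.20) followed. For Top2a the villi held 0.512, 1.08 and 1.2 RPKM in duodenum, jejunum and ileum, the duodenal level being the lowest.

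Because these genes moved together, their promoter sequence was read from RefSeq windows of build GRCm38.p6, from 250 bases before to 50 after the start of transcription, which 8955 of the 11277 tested genes had. Searched on both strands, CCAAT (the CCAAT box) was found in 14 of 18 windows of cell cycle genes (77.8%), 15 of 23 of replication genes (65.2%) and 39.3% of all 8955. The letters TTTGAA (the core of the cell cycle homology region) were found in 10 of the 18 cell cycle windows (55.6%) and 12.0% of all. The E2F letters GGCGGGAA were found in 5 of the 23 replication windows (21.7%), none of the cell cycle windows and 4.18% of all. The share for genes lower by 2 or more on the log2 scale (519 windows) was 47.6% for CCAAT, 19.8% for TTTGAA and 7.32% for GGCGGGAA. These are matches to letters, not sites shown to be bound.

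The 150 bases before the start are shown for 3 cell cycle genes with both CCAAT and TTTGAA, and for 3 replication genes with the E2F letters. The genes were chosen for these matches after their values were seen. They are Top2a (chr11:99024190-99024339 on the minus strand), Cdc20, an activator of mitotic exit (chr4:118437344-118437493 on the minus strand), Kif11 (chr19:37376232-37376381 on the plus strand), Rrm1, a ribonucleotide reductase subunit (chr7:102441545-102441694 on the plus strand), Prim1, the primase (chr10:128015065-128015214 on the plus strand), and Uhrf1, which helps copy DNA methylation (chr17:56303187-56303336 on the plus strand). Each reads 5′ to 3′ along its gene, with these motifs, on either strand, in capitals.

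Top2a: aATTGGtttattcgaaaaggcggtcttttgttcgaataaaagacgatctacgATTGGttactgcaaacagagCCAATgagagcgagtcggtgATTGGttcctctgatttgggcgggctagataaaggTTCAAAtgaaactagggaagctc
Cdc20: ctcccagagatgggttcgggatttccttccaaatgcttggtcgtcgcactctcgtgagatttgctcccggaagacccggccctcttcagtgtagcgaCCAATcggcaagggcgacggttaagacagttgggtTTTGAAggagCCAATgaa
Kif11: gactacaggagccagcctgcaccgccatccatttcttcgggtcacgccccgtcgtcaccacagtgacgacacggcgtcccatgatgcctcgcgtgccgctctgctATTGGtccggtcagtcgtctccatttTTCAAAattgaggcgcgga
Rrm1: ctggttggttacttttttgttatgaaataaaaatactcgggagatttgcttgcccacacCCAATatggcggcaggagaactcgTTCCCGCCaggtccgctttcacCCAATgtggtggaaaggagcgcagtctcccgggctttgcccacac
Prim1: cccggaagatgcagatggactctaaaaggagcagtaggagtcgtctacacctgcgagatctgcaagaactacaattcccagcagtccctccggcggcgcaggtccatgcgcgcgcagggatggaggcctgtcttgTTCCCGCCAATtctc
Uhrf1: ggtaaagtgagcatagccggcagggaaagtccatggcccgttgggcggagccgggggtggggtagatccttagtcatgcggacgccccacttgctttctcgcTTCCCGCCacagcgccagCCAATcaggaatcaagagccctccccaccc

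Top2a holds 4 CCAAT matches, the nearest at -58 counted from the start base at 0 to the leftmost base of the match, and TTTGAA at -23. Cdc20 and Kif11 hold TTTGAA at -18 and -19. In Prim1 the E2F letters and CCAAT overlap. In villi Cdc20 measured 0.813, 4.76 and 7.13 RPKM against 14.96 to 36.4 RPKM (median 24.1) in crypts (-2.50 ± 0.43, adjusted p = 0.00134), and Rrm1 0.333, 2.04 and 2.16 RPKM against 10.2 to 35.7 RPKM (median 17.2) (-2.96 ± 0.43, adjusted p = 0.000552). Prim1 (-3.20 ± 0.35) and Uhrf1 (-2.70 ± 0.30) were also lower, and for all 6 genes the villi lay below every crypt library.

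Genes that build ribosomes were lower as well. Of 21 genes of ribosome biogenesis, 20 were lower (median -2.50), led by Nola1, a protein of pseudouridine-guiding particles (-3.22 ± 0.27), Nol5 (-3.63 ± 0.31), Gnl3, the nucleolar protein nucleostemin (-2.98 ± 0.26), and Ncl, nucleolin (-3.50 ± 0.30). Ncl measured 21.0 to 52.7 RPKM (median 39.6) in crypts and 1.73, 2.44 and 2.87 RPKM in villi. Of 30 tested genes of cytosolic ribosomal proteins, 28 were lower (median -2.20; -2.11 against the number-1 and -2.08 against the number-2 crypt libraries).

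Their median difference was -3.07 in duodenum, -1.77 in jejunum and -1.55 in ileum, and their summed level 2011, 4393 and 6153 RPKM in villi against 11650 to 18080 RPKM in crypts. Ribosomal protein genes have many near-identical pseudogenes, and reads shared with those may be split, so single values are uncertain. Of 31 listed genes of oxidative phosphorylation and its regulators, 1 was higher and 3 lower (12 and 2 against the number-1 crypts, 1 and 8 against the number-2 crypts, 2 and 5 with the crypt number as a block). The shares were 3.23% higher and 9.68% lower, beside 19.2% and 32.5% of all tested genes. The median of 0.02 lay between opposite values, 0.50 against the number-1 and -0.44 against the number-2 crypt libraries. The higher count was 3 without the duodenal number-2 crypts, and the lower count 5 without the duodenal number-1 crypts or ileal number-1 crypts and 1 without the duodenal villi. Ppargc1a, which drives mitochondrial genes, was the higher one (1.33 ± 0.23), and its relative Ppargc1b was lower (-1.73 ± 0.31). Tfam and Cycs (cytochrome c) were the other lower ones. Ppargc1a, Ppargc1b and Tfam are regulators and not subunits of the respiratory chain.

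Paneth cell genes had the largest shift of the 54 lists. Of 25 listed, 22 were tested, and 21 were lower and 1 higher (1 and 21 against the number-1 crypts, 0 and 21 against the number-2 crypts). Their median was -5.21 (-5.97 against the number-1 and -4.45 against the number-2 crypt libraries); the lower count was 21 without any 1 library. Defcr6 and Defcr24 are alpha-defensin genes with identical values in the files, at 4756 to 73350 RPKM (median 27590) in crypts and 158, 874 and 1462 RPKM in villi (-5.27 ± 0.81, adjusted p = 0.000704). Defcr26 (-5.57 ± 0.46) and AY761184, a defensin-like gene (-5.56 ± 0.59), were lower by about as much. Reads of these near-identical genes may be shared among them.

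Mmp7, the protease that activates defensins, measured 43.2 to 586 RPKM (median 187) in crypts and 0.87, 5.51 and 9.49 RPKM in villi (-5.11 ± 0.49, adjusted p = 9.9e-05). Pla2g2a, a bactericidal phospholipase, measured 22.9 to 295 RPKM (median 109.5) in crypts and 0.788, 0.907 and 3.19 RPKM in villi (-5.44 ± 0.50, adjusted p = 8.63e-05). Itln1, an intestinal lectin, was lower too (-5.01 ± 0.64). Within every region the number-2 crypts held less of Lyz, Ang4, Defcr26 and Mmp7 than the number-1 crypts, and more than the villi. Guca2b, uroguanylin, was the 1 listed gene called higher (2.53 ± 0.80, adjusted p = 0.0241), a call not made against the number-2 crypts alone (0.0591) and lost without the duodenal, jejunal or ileal villi (adjusted p = 0.15, 0.0671 and 0.0587) or the jejunal number-1 crypts (0.0562).

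The other secretory lineages gave mixed counts. Of 16 goblet cell genes, 6 were lower and 1 higher (6 and 8 against the number-1 crypts, 0 and 6 against the number-2 crypts, 6 and 7 with the crypt number as a block); the higher count was 5 without the ileal number-2 crypts and 2 without the jejunal number-2 crypts and 0 without the duodenal number-1 crypts, duodenal villi, jejunal number-1 crypts, jejunal villi, ileal number-1 crypts or ileal villi. The goblet cell shares were 6.25% higher and 37.5% lower, beside 19.2% and 32.5% of all tested genes. The factors Spdef (-1.03 ± 0.24), Foxa3 (-1.25 ± 0.28) and Creb3l4 (-1.40 ± 0.23) were lower. The secreted trefoil peptide Tff3 measured 1453 to 8213 RPKM (median 1935) in crypts and 4718, 4072 and 8872 RPKM in villi and was not called (1.18 ± 0.58, adjusted p = 0.111), but was called higher with the crypt number as a block (0.0126) and with median-of-ratios scaling (0.0335). Of 22 tested enteroendocrine genes, 6 were higher and 4 lower (8 and 4 against the number-1 crypts, 6 and 7 against the number-2 crypts, 7 and 7 with the crypt number as a block). The enteroendocrine shares were 27.3% higher and 18.2% lower, beside the same shares of all tested genes. Neurog3, the factor that starts the endocrine lineage, measured 2.78 to 9.51 RPKM (median 4.24) in crypts and 0.198, 0.304 and 0.643 RPKM in villi (-2.10 ± 0.30, adjusted p = 0.000488), and Isl1, another endocrine factor, was lower (-0.91 ± 0.18).

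Among the hormones, Nts (neurotensin) measured 0 to 9.81 RPKM (median 1.77) in crypts and 54.4, 89.3 and 149 RPKM in villi (5.10 ± 0.40, adjusted p = 6.3e-05). Scg2, a granule protein, was higher (0.98 ± 0.16), and the granule protein Chga was not called (0.83 ± 0.33, adjusted p = 0.0567), but was called higher with the block (0.0377), with median-of-ratios scaling (0.0212) and against the number-2 crypts alone (0.0167). The count of endocrine genes called higher was 3 without the duodenal villi or jejunal villi. Of 11 tested tuft cell genes, 9 were higher and none lower (median 1.18). Trpm5, the channel of their taste-like signalling, measured 1.86 to 3.4 RPKM (median 2.68) in crypts and 7.95, 9.05 and 5.93 RPKM in villi (1.24 ± 0.23, adjusted p = 0.00187). Siglec5, the listed name of mouse Siglecf (2.28 ± 0.25), Alox5ap (1.90 ± 0.35) and Ptgs1 (1.24 ± 0.26), which serve leukotriene and prostaglandin synthesis, were also higher.

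Most lists of digestion and absorption had more genes higher than lower in villi, by an amount that depended on the crypt number. Of 15 genes of sugar digestion and transport, 8 were higher and none lower (15 and 0 against the number-1 crypts, 8 and 0 against the number-2 crypts, 13 and 0 with the crypt number as a block). Their median was 1.94 (3.23 against the number-1 and 1.07 against the number-2 crypt libraries), and the higher count was 13 without the duodenal number-2 crypts and 5 without the duodenal villi. Lct, lactase, measured 0.616 to 108 RPKM (median 5.63) in crypts and 428, 531 and 157 RPKM in villi (5.04 ± 0.92, adjusted p = 0.00168). The glucose-6-phosphatase G6pc (4.26 ± 0.61) and the transporter gene Slc5a4b (4.56 ± 0.65) lay above every crypt library.

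Sucrase-isomaltase, listed as 2010204N08Rik, measured 8.25, 4.73 and 2.3 RPKM in the number-1 crypts of duodenum, jejunum and ileum, 108, 50.3 and 23.9 RPKM in the number-2 crypts, and 51.3, 50.4 and 39.7 RPKM in villi. It was not called (1.49 ± 0.93, adjusted p = 0.203), and its difference was 3.10 against the number-1 and -0.12 against the number-2 crypts. It was called with the crypt number as a block (adjusted p = 0.000991), a fit that leaves this split out of the spread. Villi lay above the number-2 crypts in ileum, below them in duodenum and almost level with them in jejunum.

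All 14 tested genes of the brush border peptidase list were higher, with 7 without the ileal villi and 5 without the duodenal villi. The median was 3.26, with 4.74 against the number-1 and 1.83 against the number-2 crypt libraries. Ace, the angiotensin-converting enzyme, measured 3.0 to 147 RPKM (median 21.8) in crypts and 552, 681 and 241 RPKM in villi (4.37 ± 0.85, adjusted p = 0.00246). Naaladl1 (4.16 ± 0.63), Pepd, a cytosolic enzyme that splits proline dipeptides (3.65 ± 0.70), and Mme, neprilysin (3.07 ± 0.69), were among the 14. Naaladl1 was graded along the gut, at 253, 797 and 2383 RPKM in duodenal, jejunal and ileal villi, so the duodenal villi overlapped the crypts, which ran from 6.11 to 364 RPKM (median 39.6).

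Of 17 tested peptide and amino acid transporters, 11 were higher and 4 lower. Xtrp3s1, the listed name of Slc6a20a (3.92 ± 0.69), and Slc16a10, which carries aromatic amino acids (2.86 ± 0.34), were higher. Slc1a5, a glutamine carrier of dividing cells, measured 33.9 to 74.1 RPKM (median 50.7) in crypts and 4.29, 5.61 and 10.4 RPKM in villi (-2.78 ± 0.27, adjusted p = 9.52e-05), and Slc7a5, a carrier of large neutral amino acids, was lower as well (-2.04 ± 0.26). The higher count was 7 without the jejunal villi and 6 without the ileal villi and 5 without the duodenal villi.

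Of 15 tested genes of apolipoproteins and chylomicron assembly, 11 were higher and 1 lower (median 3.09; 4.29 against the number-1 and 1.89 against the number-2 crypt libraries). Apoa4 reached 46870, 17210 and 2368 RPKM in duodenal, jejunal and ileal villi, and Apoc3 11270, 4538 and 931 RPKM against 9.17 to 1661 RPKM (median 98.8) in crypts (4.78 ± 1.08, adjusted p = 0.0051, 0.0549 without the duodenal villi). Apob, the scaffold of the particle, measured 4.12 to 37.1 RPKM (median 13.5) in crypts and 253, 132 and 113 RPKM in villi (3.60 ± 0.68, adjusted p = 0.00198), and Mttp, which loads it with lipid, 6.49 to 137 RPKM (median 29.1) and 383, 440.1 and 294 RPKM (3.45 ± 0.71, adjusted p = 0.00308). The summed level of the list was 111400, 51620 and 36380 RPKM in villi against 813 to 19000 RPKM in crypts. The higher count was 7 without the ileal villi and 5 without the duodenal villi, and the lower count 0 without the duodenal villi or jejunal villi.

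Of 19 genes of fatty acid uptake and triglyceride synthesis, 12 were higher and 1 lower (14 and 2 against the number-1 crypts, 12 and 1 against the number-2 crypts), with a median of 1.99 and a higher count of 6 without the duodenal villi. Cd36, a fatty acid receptor, measured 0.111 to 3.01 RPKM (median 0.616) in crypts and 18.9, 20.7 and 3.64 RPKM in villi (2.81 ± 0.36, adjusted p = 0.00028), and Slc27a4 (3.25 ± 0.66) and Lpin3 (1.99 ± 0.39) were higher. Pnliprp2, a lipase, was the lower one, at 32.2 to 559 RPKM (median 166) in crypts and 8.09, 6.13 and 11.9 RPKM in villi (-3.99 ± 0.63, adjusted p = 0.00078). The binding protein gene Fabp2 was not called (2.82 ± 1.08, adjusted p = 0.052): its level was 199.5, 512 and 282 RPKM in the number-1 crypts, 2003, 6016 and 3215 RPKM in the number-2 crypts and 4183, 7034 and 12600 RPKM in villi. With the crypt number as a block its adjusted p was 0.000134, and with median-of-ratios scaling 0.0252. Fabp1 was called (3.23 ± 1.11, adjusted p = 0.0341), and the call was lost against the number-2 crypts alone (0.063) and without any of the number-1 crypts (0.052, 0.0614 and 0.0591 for duodenum, jejunum and ileum) or villi (0.138, 0.0644 and 0.156 for duodenum, jejunum and ileum).

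Cholesterol uptake and efflux had 8 of 11 genes higher and none lower (10 and 1 with the crypt number as a block). Npc1l1, the cholesterol importer, measured 4.47 to 44.5 RPKM (median 18.98) in crypts and 239, 385 and 341 RPKM in villi (4.14 ± 0.66, adjusted p = 0.000846), and Abcg8, an exporter, 6.38 to 30.4 RPKM (median 18.4) and 138, 146 and 129.5 RPKM (3.01 ± 0.49, adjusted p = 0.000974). Of 19 tested genes of cholesterol synthesis 1, Sc5d (1.81 ± 0.52, adjusted p = 0.0153), was higher and none lower (7 and 0 against the number-1 crypts, 1 and 6 against the number-2 crypts, 4 and 2 with the crypt number as a block). The direction of this list depended on the crypt set, with a median of 0.24 against the number-1 and -0.86 against the number-2 crypt libraries. By region the median was -1.13 in duodenum, -0.10 in jejunum and 0.80 in ileum. The Sc5d call was lost without the duodenal, jejunal or ileal villi (0.0635, 0.057 and 0.0869). The higher count was 5 without the duodenal number-2 crypts and 2 without the ileal number-2 crypts and 0 without the duodenal villi, jejunal villi or ileal villi, and the lower count 4 without the ileal number-1 crypts. Of 20 tested PPAR targets and genes of fat oxidation, 5 were higher and 2 lower (10 and 2 against the number-1 crypts, 5 and 3 against the number-2 crypts, 9 and 4 with the crypt number as a block), shares of 25% and 10%, beside 19.2% and 32.5% of all tested genes; the higher count was 10 without the duodenal number-2 crypts and the lower count 1 without the jejunal villi and 0 without the duodenal villi. Vnn1 measured 0.0847 to 17.3 RPKM (median 4.7) in crypts and 81.9, 152 and 227 RPKM in villi (4.63 ± 0.64, adjusted p = 0.000404), and Pdk4, which spares glucose (1.78 ± 0.21), and Angptl4 (2.55 ± 0.42) were higher.

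Of 16 tested genes of purine salvage, breakdown and nucleoside uptake, 12 were higher and 1 lower (12 and 1 against the number-1 crypts, 12 and 2 against the number-2 crypts, 12 and 2 with the crypt number as a block), with a median of 2.15. Nt5e, the ectoenzyme that makes adenosine from AMP, measured 0.0315 to 0.853 RPKM (median 0.102) in crypts and 35.4, 30.4 and 12.6 RPKM in villi (4.33 ± 0.31, adjusted p = 6.3e-05). Slc28a2, which takes up purine nucleosides with sodium, measured 0.217 to 1.26 RPKM (median 0.922) in crypts and 74.5, 37.1 and 10.5 RPKM in villi (4.17 ± 0.45, adjusted p = 0.00014). The equilibrative carrier Slc29a1 was the lower one, at 19.98 to 29.2 RPKM (median 23.2) in crypts and 1.48, 2.1 and 1.93 RPKM in villi (-3.13 ± 0.23, adjusted p = 6.3e-05). Ada, Nt5e, Enpp3 and Slc28a2 each had their highest villus level in duodenum and their lowest in ileum. With 1 library left out, the number higher was 7 without the duodenal villi.

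Of 9 tested genes listed under phosphatases and sphingomyelin digestion, 8 were higher, with 5 without the jejunal number-1 crypts or ileal number-1 crypts and 4 without the duodenal villi, jejunal villi or ileal villi. The higher ones include the phosphate transporter gene Slc34a2, which is not an enzyme. Asah2, a ceramidase (3.54 ± 0.67), and Smpdl3b (2.83 ± 0.45) joined Enpp7. Alpi, the brush border alkaline phosphatase, measured 12.5, 16.6 and 6.22 RPKM in the number-1 crypts, 351, 170.4 and 114 RPKM in the number-2 crypts and 762, 573 and 633 RPKM in villi. All villi lay above all crypts for Alpi (3.77 ± 1.15, adjusted p = 0.021), and the call was lost without the duodenal, jejunal or ileal villi (0.0894, 0.0676 and 0.0969).

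Iron, calcium and vitamin uptake gave 10 of 21 tested genes higher and 2 lower (9 and 1 under all 3 scalings); the higher count was 6 without the duodenal villi, and the lower count 1 without the duodenal number-2 crypts, jejunal number-1 crypts, jejunal number-2 crypts, jejunal villi, ileal number-1 crypts, ileal number-2 crypts or ileal villi. Heph, the ferroxidase of iron export (2.36 ± 0.42), Slc23a1, a vitamin C transporter (2.73 ± 0.44), and Amn, part of the cobalamin receptor (2.53 ± 0.54), were higher. Tfrc, the transferrin receptor of dividing cells, was lower, at 14.9 to 67.3 RPKM (median 25.8) in crypts and 1.56, 3.62 and 2.98 RPKM in villi (-2.95 ± 0.47, adjusted p = 0.000837). Of 9 tested bile acid genes 4 were higher, with 2 without the duodenal villi, jejunal number-1 crypts or jejunal villi and 1 without the ileal villi. Nr0b2, a repressor induced by bile acids, measured 0.1 to 2.85 RPKM (median 0.984) in crypts and 13.9, 7.61 and 13.9 RPKM in villi (2.61 ± 0.30, adjusted p = 0.000181).

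Of 27 genes of cytochrome P450 and drug metabolism, 21 were higher and none lower (median 2.12; 2.93 against the number-1 and 1.20 against the number-2 crypt libraries); the count was 10 without the ileal villi and 6 without the duodenal villi. Ces2 (4.32 ± 0.50) and Ces6 (3.20 ± 0.55), carboxylesterases, Cyp4v3 (3.42 ± 0.71) and Cyp27a1, a sterol hydroxylase (2.46 ± 0.53), had the smallest p-values. Of the retinoid and alcohol dehydrogenase list 7 of 14 tested were higher, among them Retsat (2.29 ± 0.43) and Rdh7 (2.88 ± 0.66), with 4 without the duodenal villi or ileal villi. Of 24 tested glutathione transferases and antioxidants 7 were higher and 3 lower (16 and 2 against the number-1 crypts, 5 and 4 against the number-2 crypts, 12 and 4 with the crypt number as a block). Their median was 1.08 against the number-1 and -0.12 against the number-2 crypt libraries. The shares of this list were 29.2% higher and 12.5% lower, beside 19.2% and 32.5% of all tested genes. Gpx4, which repairs oxidised lipids (3.11 ± 0.51), and Cat, catalase (2.19 ± 0.44), were higher and Gstm5 lower (-2.01 ± 0.24).

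The letters CAAAGTCCA, a full match to the binding motif of HNF4 (a nuclear receptor of enterocytes), were searched on either strand. Among genes called under all 3 scalings, they were found in 8 of 393 windows of those higher by 2 or more on the log2 scale (2.04%). They were found in 1 of 519 of those lower by as much (0.193%) and in 41 of all 8955 (0.458%). TATAAA was found in 16.8% of windows of the higher genes, 10.6% of the lower ones and 7.41% of all. By list, the HNF4 letters were in 0 of 10 windows of brush border peptidases, 0 of 12 of apolipoproteins and 1 of 12 of Paneth cell genes. For 3 absorptive genes with the HNF4 letters the 150 bases before the start are shown, with the match in capitals; they were chosen after their values were seen. They are Alpi (chr1:87101607-87101756 on the minus strand), Slc3a1, part of a carrier of cystine and basic amino acids (chr17:85028197-85028346 on the plus strand), and Treh, trehalase (chr9:44673083-44673232 on the plus strand), all in GRCm38.p6.

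Alpi: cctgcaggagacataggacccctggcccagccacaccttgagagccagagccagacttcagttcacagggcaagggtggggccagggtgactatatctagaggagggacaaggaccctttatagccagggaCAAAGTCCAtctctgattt
Slc3a1: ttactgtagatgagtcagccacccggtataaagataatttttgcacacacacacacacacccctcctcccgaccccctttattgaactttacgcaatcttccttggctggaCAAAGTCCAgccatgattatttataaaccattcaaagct
Treh: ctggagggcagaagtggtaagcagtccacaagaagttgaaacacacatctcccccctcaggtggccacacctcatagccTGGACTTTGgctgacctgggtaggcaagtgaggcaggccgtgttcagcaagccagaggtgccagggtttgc

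The match lies at -19 in Alpi, -39 in Slc3a1 and -71 in Treh, where it is on the other strand. Treh measured 3.12 to 126 RPKM (median 21.8) in crypts and 534, 286 and 172 RPKM in villi (3.79 ± 0.93, adjusted p = 0.0074, 0.0714 without the duodenal villi). Slc3a1 measured 6.21 to 69.8 RPKM (median 22.4) and 110.3, 118 and 163 RPKM (2.65 ± 0.74, adjusted p = 0.0139, 0.081 and 0.0649 without the duodenal and ileal villi). Hnf4a itself measured 94.8 to 181 RPKM (median 135) in crypts and 112, 141 and 181 RPKM in villi and was not called (0.05 ± 0.33, adjusted p = 0.901); its estimate changed sign with the scaling. Its relative Hnf4g was higher, at 26.97 to 37.8 RPKM (median 31.2) and 60.1, 92.1 and 79.6 RPKM (1.25 ± 0.25, adjusted p = 0.00297).

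Of 34 tested epithelial transcription factors, 8 were higher and 9 lower, with a median of 0.00. The higher and lower shares were 23.5% and 26.5%, beside 19.2% and 32.5% of all tested genes. The gut identity factor Cdx2 measured 70.5 to 145 RPKM (median 92.9) in crypts and 51.7, 103 and 154 RPKM in villi and was not called (-0.07 ± 0.38, adjusted p = 0.892). Prdm1, a repressor also known as Blimp1, was higher (0.98 ± 0.14), and Ehf (-2.72 ± 0.33), Grhl2 (-1.24 ± 0.23) and Klf5, a factor of proliferating crypt cells (-1.52 ± 0.33), were lower. Klf4, which restrains division, measured 13.6 to 52.6 RPKM (median 30.1) in crypts and 99.3, 69.5 and 92.3 RPKM in villi (1.5 ± 0.36, adjusted p = 0.00691, 0.0672 without the duodenal villi). Leaving out 1 library gave 5 without the duodenal villi, and the lower count 5 without the jejunal villi and 4 without the duodenal villi.

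The apical surface and the junctions changed in part. Of 20 genes of the microvillus cytoskeleton 14 were higher and 1 lower (14 and 0 under all 3 scalings). Their median was 1.95 (2.52 against the number-1 and 1.19 against the number-2 crypt libraries), with a higher count of 8 without the ileal villi and 6 without the duodenal villi, and a lower count of 0 without the duodenal villi, jejunal villi or ileal villi. Those with the smallest p-values were AI427122 (Pls1, an actin bundler, 3.54 ± 0.58), BC040758 (Cdhr2, a cadherin that links microvilli, 3.57 ± 0.61), Pdzk1 (3.84 ± 0.82) and Eps8 (1.92 ± 0.35). Vil1, villin, measured 57.3 to 398 RPKM (median 175) in crypts and 649.7, 932 and 932 RPKM in villi (2.32 ± 0.65, adjusted p = 0.0138), a call lost without the duodenal, jejunal or ileal villi (0.077, 0.0563 and 0.0578). The epithelial marker Tacstd1 (Epcam) was present in all libraries, at 168 to 496 RPKM (median 281) in crypts and 768, 819 and 1322 RPKM in villi.

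Of 18 tested genes of claudins and junctions, 6 were higher and 1 lower (10 and 1 against the number-1 crypts, 5 and 1 against the number-2 crypts); the higher count was 3 without the jejunal villi or ileal villi, and the lower count 0 without the duodenal villi. Cldn4, a sealing claudin, measured 3.86 to 23.4 RPKM (median 14.7) in crypts and 370.3, 214 and 255 RPKM in villi (4.32 ± 0.43, adjusted p = 0.000104), with a difference of 4.10 and 4.55 against the number-1 and number-2 crypts. Cldn2, a pore-forming claudin of crypts, measured 21.9 to 86.4 RPKM (median 54.9) in crypts and 0.753, 2.88 and 43.2 RPKM in villi, so the ileal villi overlapped the crypts (-2.93 ± 0.67, adjusted p = 0.0053, 0.0579 without the duodenal villi). Occludin, Ocln, was higher (1.90 ± 0.35). The claudin and junction shares were 33.3% higher and 5.56% lower, beside 19.2% and 32.5% of all tested genes. Of 7 simple epithelial keratins 1 was higher and 2 lower (2 and 2 against the number-1 crypts, 1 and 3 against the number-2 crypts). The keratin shares were 14.3% higher and 28.6% lower, beside 19.2% and 32.5% of all tested genes. Krt20, a marker of differentiated cells, was higher (3.57 ± 1.0, adjusted p = 0.0141, 0.12 without the duodenal villi), and Krt7 (-2.21 ± 0.30) and Krt18 (-1.85 ± 0.40) were lower.

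Of 25 tested genes of carbonic anhydrases and ion transport, 8 were higher and 10 lower (13 and 10 against the number-1 crypts, 7 and 9 against the number-2 crypts). The ion transport shares were 32% higher and 40% lower, beside 19.2% and 32.5% of all tested genes. The sodium-proton exchanger Slc9a3 measured 0.0782 to 2.47 RPKM (median 0.886) in crypts and 22.1, 23.3 and 5.6 RPKM in villi (3.07 ± 0.25, adjusted p = 6.3e-05), and its relative Slc9a2 was higher as well (3.01 ± 0.36). The potassium channel gene Kcnq1, which serves secretion, was lower, at 40.7 to 77.6 RPKM (median 57.9) and 1.74, 5.67 and 11.4 RPKM (-3.25 ± 0.35, adjusted p = 0.000135). Car1, a carbonic anhydrase, was listed at 0 in all 3 villus libraries and at 6.75 to 25.1 RPKM (median 12.3) in crypts, so the size of its difference is set by the added 1 and is not given. Genes called higher numbered 5 without the duodenal villi or jejunal villi.

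Of 19 listed genes of the villus tip, 14 were higher and 1 lower (median 3.95; 4.53 against the number-1 and 2.49 against the number-2 crypt libraries). The list holds Ada, Enpp7 and Apoa4, which were already named for this comparison. Ceacam20, an adhesion protein of the brush border, measured 0.796 to 30.0 RPKM (median 3.66) in crypts and 96.6, 103 and 164 RPKM in villi (4.18 ± 0.73, adjusted p = 0.00137), and Creb3l3, a factor of lipid genes, 2.01 to 159 RPKM (median 23.04) and 508, 337 and 288 RPKM (3.95 ± 0.90, adjusted p = 0.00537). Atf3 was the lower one (-2.59 ± 0.39); it is also an immediate early gene. Of 21 tested genes of shedding and apoptosis 7 were higher and 1 lower (14 and 1 against the number-1 crypts, 7 and 1 against the number-2 crypts), with a lower count of 0 without the duodenal villi or jejunal villi. Among the higher ones were Bcl2l1, a survival gene (1.64 ± 0.26), and Gsdmd, a pore protein (2.61 ± 0.56). The shedding and apoptosis shares were 33.3% higher and 4.76% lower, beside 19.2% and 32.5% of all tested genes.

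Immediate early genes, which cells induce rapidly after a stimulus, were lower in villi for 10 of 17, with 1 higher (0 and 13 against the number-1 crypts, 1 and 10 against the number-2 crypts, 0 and 9 under all 3 scalings). Their median was -1.79 (-2.04 against the number-1 and -1.28 against the number-2 crypt libraries); the higher count was 0 without the duodenal villi, jejunal number-2 crypts, jejunal villi, ileal number-1 crypts, ileal number-2 crypts or ileal villi. Dusp1, a phosphatase that ends MAP kinase signals, measured 47.6 to 64.8 RPKM (median 55.9) in crypts and 7.28, 5.34 and 8.5 RPKM in villi (-2.83 ± 0.24, adjusted p = 7.31e-05), and Fos (-1.79 ± 0.36) and Jun (-1.89 ± 0.44) were lower. Myc is on this list and on those of Wnt targets and ribosome biogenesis. The labels do not say how long either tissue was handled. Of 21 genes of endoplasmic reticulum folding and stress, 7 were lower and 2 higher (5 and 6 against the number-1 crypts, 2 and 12 against the number-2 crypts); the lower count was 4 without the jejunal number-1 crypts, jejunal number-2 crypts or ileal number-2 crypts and 2 without the duodenal villi or jejunal villi, and the higher count 1 without the jejunal number-1 crypts or jejunal villi and 0 without the duodenal villi or ileal villi. The shares of this list were 9.52% higher and 33.3% lower, beside 19.2% and 32.5% of all tested genes. Ern2, a stress sensor of mucus-secreting cells, was lower (-2.62 ± 0.51), as was the chaperone gene Hsp90b1 (-1.87 ± 0.37).

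Immune surface and interferon genes were higher in villi. Of 18 tested interferon response genes 14 were higher and 1 lower (16 and 1 against the number-1 crypts, 12 and 0 against the number-2 crypts, 12 and 0 under all 3 scalings), with a median of 1.26 and a lower count of 0 without the duodenal villi, jejunal number-1 crypts, jejunal number-2 crypts, jejunal villi or ileal number-1 crypts. Isg15, a ubiquitin-like interferon product, measured 1.75 to 8.15 RPKM (median 4.07) in crypts and 125, 43.2 and 35.3 RPKM in villi (3.60 ± 0.47, adjusted p = 0.000324), and Irf7, a factor that amplifies interferon, 5.6 to 31.9 RPKM (median 13.2) and 145, 112 and 141 RPKM (3.15 ± 0.45, adjusted p = 0.000518). Of 14 tested genes of MHC class I and the immunoproteasome 12 were higher and none lower (median 2.01). The peptide transporter genes Tap1 (2.29 ± 0.28) and Tap2 (2.57 ± 0.25) and the non-classical H2-T23 (3.54 ± 0.49) lay above all crypts; H2 genes are near-identical in parts and may share reads.

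Of 8 tested MHC class II genes 7 were higher, and these, unlike the interferon and class I lists, were nearer to the number-1 than to the number-2 crypts (median 1.26 and 2.94). H2-Ab1 measured 10.04, 65.2 and 23.2 RPKM in the number-1 crypts of duodenum, jejunum and ileum, 3.62, 8.3 and 4.15 RPKM in the number-2 crypts and 195, 100.3 and 117 RPKM in villi (3.40 ± 0.74, adjusted p = 0.00415, 0.0532 without the duodenal villi). The class II count was 4 without the ileal villi and 2 without the duodenal villi. Of 14 tested antimicrobial lectin and oxidase genes 3 were higher and 2 lower (6 and 3 against the number-1 crypts, 2 and 3 against the number-2 crypts, 5 and 3 with the crypt number as a block, 3 and 1 under all 3 scalings), shares of 21.4% and 14.3%, beside 19.2% and 32.5% of all tested genes; the higher count was 1 without the duodenal villi, jejunal villi or ileal villi, and the lower count 1 without the jejunal villi or ileal villi. Dmbt1, a mucosal scavenger protein, measured 53.6 to 751 RPKM (median 157) in crypts and 5.93, 16.3 and 15.5 RPKM in villi (-3.86 ± 0.65, adjusted p = 0.00106). Pap, the listed name of Reg3b, a bactericidal lectin, was higher (4.07 ± 0.83, adjusted p = 0.00305), although its duodenal villi overlapped the ileal number-2 crypts.

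Markers of other cell types differed between the tissues and are given for the whole of each list. All 15 tested T lymphocyte genes of 18 listed were higher in villi, with or without any 1 library, and their summed level was 2.4 to 11.9 RPKM in crypts and 595, 252 and 129 RPKM in duodenal, jejunal and ileal villi. Cd3e, a T cell receptor subunit, measured 0 to 0.239 RPKM (median 0.0746) in crypts and 17.5, 11.4 and 6.09 RPKM in villi (3.45 ± 0.23, adjusted p = 6.3e-05). Cd7 measured 0 to 1.44 RPKM (median 0.574) and 92.8, 45.3 and 26.4 RPKM (4.99 ± 0.36, adjusted p = 6.3e-05), and the cytotoxic granule gene Gzma 0 to 1.11 RPKM (median 0.687) and 109, 47.6 and 15.7 RPKM (4.91 ± 0.42, adjusted p = 7.3e-05). The part of these cells in the interferon and MHC class I values was not tested.

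Of 9 tested smooth muscle genes 7 were higher. Acta2, smooth muscle actin, measured 0.0644 to 0.64 RPKM (median 0.215) in crypts and 9.05, 17.5 and 26.7 RPKM in villi (3.79 ± 0.29, adjusted p = 6.3e-05), and Actg2 0 to 0.17 RPKM (median 0.0839) and 4.07, 8.67 and 20.2 RPKM (3.23 ± 0.29, adjusted p = 7.86e-05). The summed level of the list was 21.8 to 89.2 RPKM in crypts and 86.8, 98.5 and 135 RPKM in villi, so these sums overlapped. The erythrocyte list (4 of 7 tested, all higher) summed to 0.0984 to 2.22 RPKM in crypts and 13.4, 38.9 and 45.1 RPKM in villi. Hbb-b1 and Hbb-b2 were listed at 0 in all 6 crypt libraries. The fibroblast list summed to 1.39 to 6.22 RPKM and 7.4, 11.7 and 14.7 RPKM, with Col3a1 at 0 in all crypts, and 4 of 6 tested were higher, with 2 without the jejunal villi or ileal villi (2 and 0 under all 3 scalings).

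Of 12 tested macrophage and dendritic cell genes 7 were higher and 2 lower, with differences from -2.18 to 3.49 and a median of 0.93. These shares were 58.3% and 16.7%, beside 19.2% and 32.5% of all tested genes. All villi lay above all crypts for 7 of the 12 and below all crypts for 2. The members named next are among the higher ones only. C1qa, a complement subunit, measured 0 to 1.23 RPKM (median 0.2) in crypts and 11.1, 13.9 and 10.7 RPKM in villi (3.32 ± 0.24, adjusted p = 6.3e-05), and Csf1r, the growth factor receptor of macrophages, 0 to 0.126 RPKM (median 0.0575) and 0.788, 1.59 and 1.47 RPKM (1.09 ± 0.12, adjusted p = 0.000162). The summed level of the whole macrophage and dendritic cell list overlapped, at 169 to 218 RPKM in crypts and 166 to 182 RPKM in villi. The plasma cell chain Igj measured 0.0919 to 2.97 RPKM (median 0.262) in crypts and 4.96, 7.51 and 15.3 RPKM in villi (2.63 ± 0.43, adjusted p = 0.000955). Endothelial genes summed to 2.82 to 6.48 RPKM in crypts and 2.5 to 4.16 RPKM in villi. Of 5 tested, 2 were higher and 1 lower (0 and 1 under all 3 scalings). The counts were 0 and 1 against the number-1 crypts and 2 and 2 against the number-2 crypts. The higher count was 0 without the duodenal, jejunal or ileal villi. The endothelial shares were 40% higher and 20% lower, beside 19.2% and 32.5% of all tested genes. Of the pancreatic acinar list none of 3 tested genes was called. Cd3e, Actg2 and Hbb-b1 were thus at or near 0 in all 6 crypt libraries and above 1 RPKM in all 3 villus libraries. The part of these cells in the other values was not tested.

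**Figure D4:**
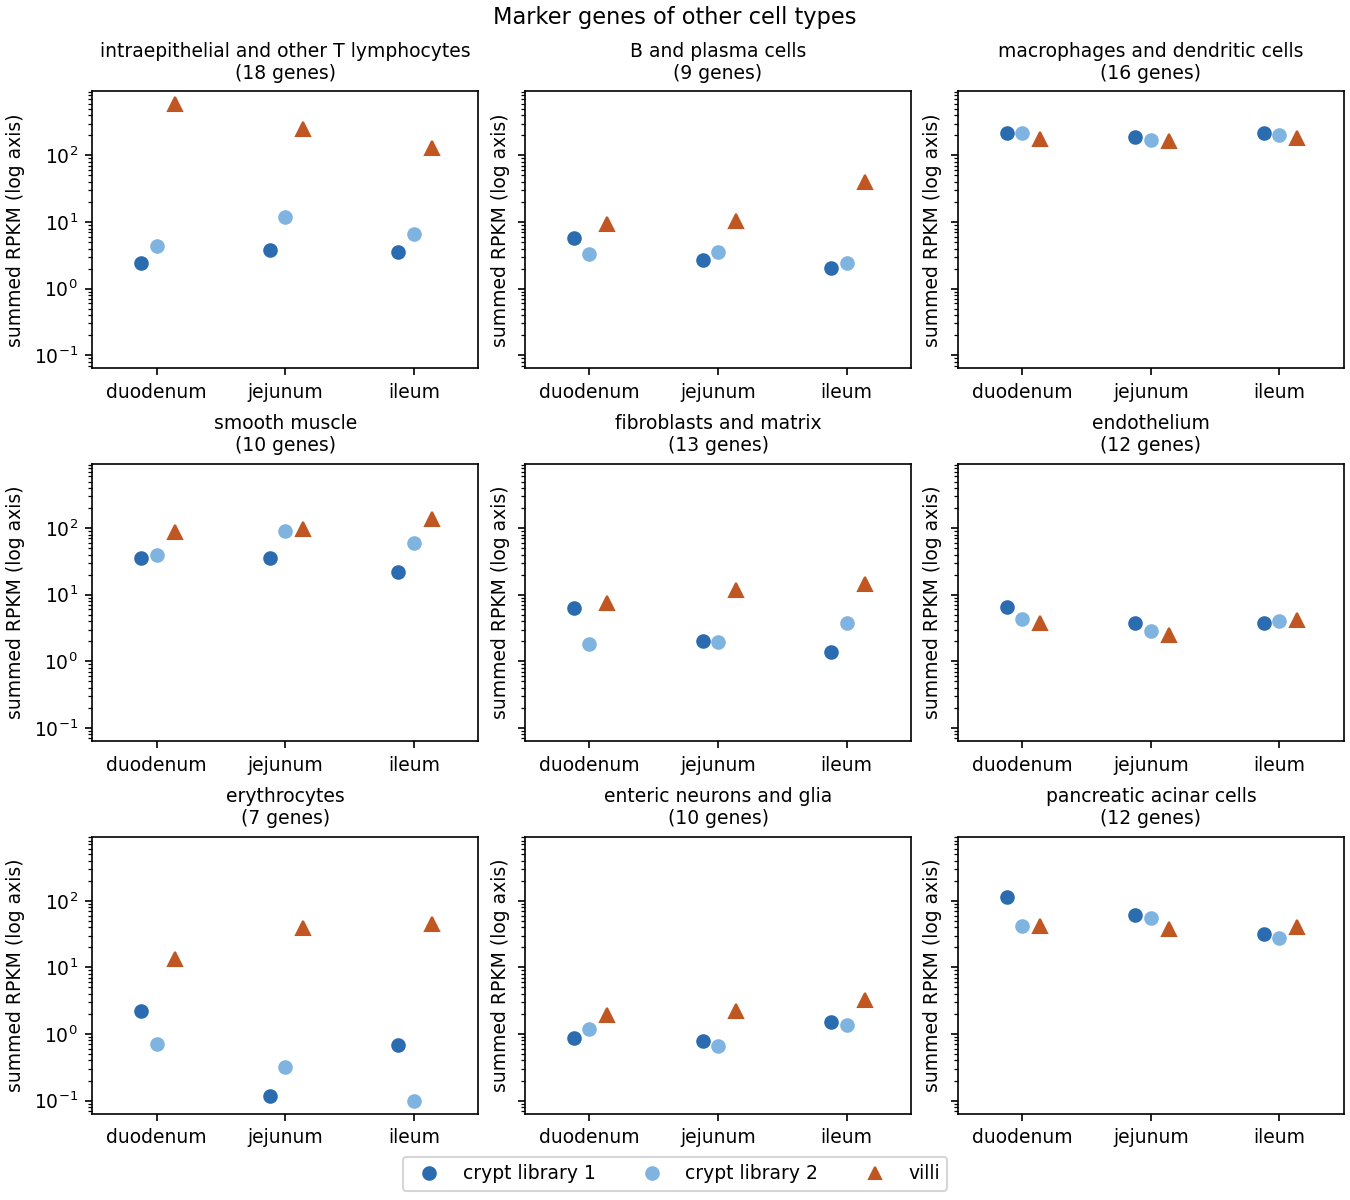
Summed RPKM on a log axis, the same in all panels, of the listed marker genes of 9 other cell types by region. Circles are the crypt libraries numbered 1 (dark) and 2 (light) and triangles the villi; the T lymphocyte, B and plasma cell, fibroblast, erythrocyte and neuron and glia sums of the villi lie above all crypts, while the macrophage, smooth muscle, endothelium and acinar sums overlap.

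Whether the villus-crypt difference itself varied between regions was tested with limma's F test over the 3 regions, in which the lone villus library of a region is assumed to vary like the crypts. No gene passed (0 of 11277, 0%), the smallest adjusted p was 0.999975, and 126 had an unadjusted p below 0.05. The spread in this test rests on 3 residual degrees of freedom, all from differences between the number-1 and number-2 crypts, which deviated together. The test therefore cannot show that the regions agree. No other tool was run for this test. The differences of the regions correlated across genes at 0.923 (duodenum and jejunum), 0.896 (duodenum and ileum) and 0.946 (jejunum and ileum), as a description. The sign was the same for 86.5%, 85.2% and 89.8% of all tested genes in these pairs. Differences of 2 or more downward were more numerous in duodenum (1130 genes) than in jejunum (589) or ileum (427), with a median of all genes of -0.35, -0.15 and -0.12. These regional values, and those of the lists, were taken without rescaling. The median-of-ratios scale was 0.744, 0.857 and 0.955 in duodenal, jejunal and ileal villi and 0.869 to 1.38 in the crypts. The part of scaling in the regional counts was not tested.

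Some genes differed in size by region without passing that test. Cldn2 differed by -4.92, -3.19 and -0.68 in duodenum, jejunum and ileum, Dmbt1 by -6.22, -3.17 and -2.20 and Slc28a2 by 5.72, 4.11 and 2.69. Fgf15, the hormone by which ileum reports bile acids to the liver, measured 0.0845, 12.8 and 204 RPKM in duodenal, jejunal and ileal villi, 0.105, 0.254 and 1.67 RPKM in the number-1 crypts and 0.176, 2.63 and 23.9 RPKM in the number-2 crypts. Its difference of 2.42 ± 0.86, adjusted p = 0.0383 was not called against the number-2 crypts alone (0.0528) or without the jejunal number-1 crypts (0.069), the jejunal villi (0.138) or the ileal villi (0.273).

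**Figure D5:**
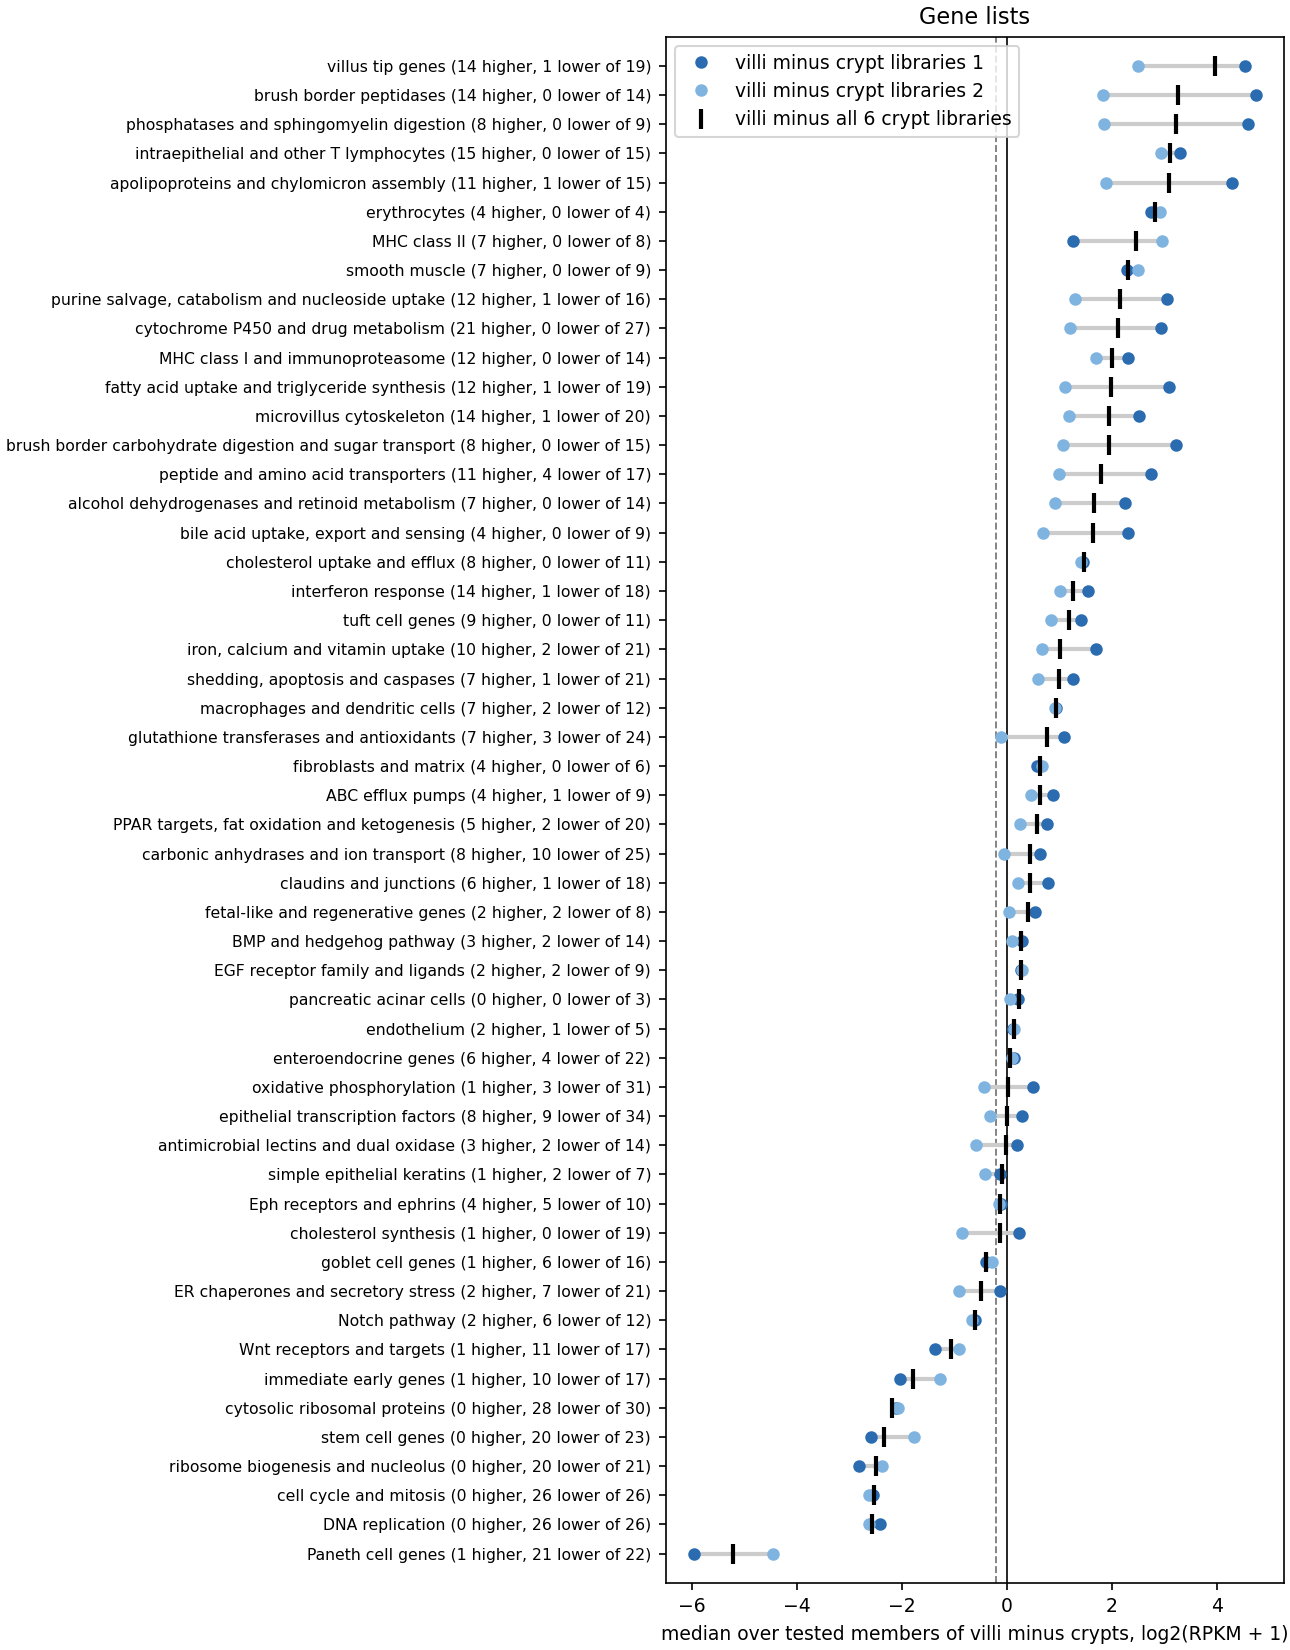
Median difference villi minus crypts in log2(RPKM + 1) over the tested members of each gene list with at least 3 tested genes, sorted; dark and light circles are the medians against the number-1 and number-2 crypt libraries, the black tick that against all 6, and the dashed line the median of all genes at -0.22. Names give the members called higher and lower, and circles lie far apart for peptidases and apolipoproteins and close together for cell cycle and replication genes.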

How the data were processed

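The values are RPKM, as deposited by the authors, one row per transcript with its exon length (21247 transcripts, 19012 gene symbols). Poly(A) RNA was made into libraries with a SOLiD kit and sequenced on a SOLiD 4 instrument, per the labels' protocols, and BWA and mm9 are named in the submitters' processing notes. No label states the counting rule, its use of strand or a read filter. RPKM steps gave whole reads for at least 99.97% of values within 0.02 read, which gave the depths. For each symbol the transcript with the longest exon length was kept (1520 symbols had several).

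Genes with at least 10 reads at the median depth in at least 3 of the 9 libraries, and at least 15 reads in all, were tested (11277) with limma 3.58.1 in R 4.3.3 (empirical Bayes with an intensity trend), in which tissue and region were terms for log2(RPKM + 1) (5 residual degrees of freedom) and Benjamini-Hochberg adjustment. The fit was tested on simulated data. Crypt numbers were a term in the block fit only, since the deviations of same-numbered libraries correlated at 0.416, 0.502 and 0.789 between regions. In that fit the villi form a level of their own, set against the mean of both crypt numbers, and are not paired. The main fit has no term for the crypt number, since the villi carry none. The split between crypt numbers therefore counts as spread in its standard errors and p-values. Groups came from library names, and organoids entered an alternative fit only. Alternatives covered the pseudocount, filter, scaling, limma-voom on recovered reads, transcript choice, crypt number as a block or alone, the region term, the trend and leaving out each library.

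Members and the 54 gene lists (987 of 1006 entries matched) were chosen with earlier results of these data known. Named genes were the 12 largest called differences without overlap in each direction and a mean RPKM of at least 5, up to 4 members with the smallest p-value per list, and a set of markers. Smoc2, Axin2, Bmi1, Tert, Epha1, Cdc20, Rrm1, Prim1, Uhrf1, Guca2b, Tff3, Treh, Slc3a1, Hnf4g, Klf5, Ceacam20, Creb3l3, Atf3, Fos, Jun, Gzma, Hbb-b1, Hbb-b2 and Col3a1 were outside that rule or chosen after their values were seen. Mki67 and Muc2 have no row in the table used here. A few genes that the rule selects are not reported here.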

Additional observations from a re-analysis of the deposited data

Results flagged for a closer look

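Among the mean levels of 52 gene lists in the 6 crypt libraries, 1 value stood far from the others. The mean level of the erythrocyte list, in log2(RPKM + 1), was 0.505 in the duodenal number-1 crypts, with the next library at 0.131 and the lowest at 0. The gap was 0.741 of the whole range, above Dixon's critical value for 6 samples. Chance alone flags about 1 in 20 such groups.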

How the results depend on the processing

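Against 2168 genes higher and 3661 lower, median-of-ratios scaling gave 3441 higher, and the number-1 crypts alone gave 3331 higher. With the crypt number as a replicate block, 2757 genes were higher and 4209 lower, no named gene lost its call and 3 gained one. Leaving out 1 library at a time gave 1335 to 2745 higher and 2260 to 3921 lower. The test of the difference between regions called 0 genes in the other settings in which it could be fitted and 373 with no filter on low values (15687 genes tested); the cause was not tested. It could not be fitted without a villus library. Over 221 named genes and all settings, 4697 values kept direction and side of the threshold, 126 lost the call, 18 gained one and 14 reversed. Those that reversed were small differences: against the number-2 crypts alone Rnase1 0.0487, Ela1 -0.0766, 2010204N08Rik -0.12 and Hnf4a -0.24; scaled to reads in genes Ela1 -0.0854 and Hnf4a -0.32; with median-of-ratios scaling Cdx2 0.29; against the number-1 crypts alone Cdx2 0.22. With 1 library left out, Cdx2 ranged from -0.376 to 0.349 and Hnf4a from -0.0744 to 0.203. Of the named genes 26, 21 and 21 lost the call without the duodenal, jejunal and ileal villi, and at most 6 without any 1 crypt library. The depth of 5268480 reads in the duodenal number-1 crypts limits what can be seen there: 1 read in a gene of 2 kilobases is 0.0949 RPKM.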

Other observations

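Gene families grouped by symbol, after their values were seen and without a test of the family, showed further patterns beside the 19.2% higher and 32.5% lower of all tested genes. Of 75 tested mitochondrial ribosomal protein genes (Mrpl and Mrps) 46 were lower in villi and none higher, with a median difference of -1.07. Of 20 spliceosome genes (Snrp and Sf3) 15 were lower and none higher (median -1.38), and of 18 nuclear pore genes (Nup) 15 were lower and none higher (median -1.18). All 7 tested genes of the cytosolic chaperonin (Cct), which folds actin and tubulin, were lower (median -1.58).

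Of 217 solute carrier genes (Slc) 74 were higher and 43 lower (median 0.47). Of 8 tested Gimap genes, GTPases known from lymphocytes, 6 were higher and 1 lower (median 1.26). Of 14 aldehyde dehydrogenase genes 8 were higher and 1 lower, and of 16 subunits of the vacuolar proton pump (Atp6v) 4 were higher and none lower.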
